A study of Mus musculus with 29 samples.

Results

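The adult haemoglobin genes of the mouse, Hba-a1, Hba-a2, Hbb-bs and Hbb-bt, were followed through 29 libraries from regenerating blood stem cells and the bone marrow niche around them. They were chosen as the genes whose Ensembl identifiers carry these symbols, and make up 4 of the 38924 genes of one count table and 4 of the 18194 genes of the other. The study asked how blood stem cells regenerate in a niche that is haploinsufficient for the signalling protein Wnt5a. Cells named LSK (lineage-negative, Sca-1+ and Kit+, the gate that holds stem and early progenitor cells) were sorted after transplantation, in 6 libraries with a wild-type (WT) niche and 5 with a Wnt5a niche. From WT and Wnt5a niches the endothelium (EC), bone-forming osteoblastic cells (OBC) and mesenchyme (MSC) were sorted, with 3 libraries in each of these 6 groups. Every library is labelled with the strain 129Ly5.1, and the genotype label refers to the niche. The allele that was lost, the age of the mice and whether each library came from its own animal are not given in the labels, so p-values here measure the spread between these libraries, which may in part be technical.

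Haemoglobin carries oxygen as paired alpha and beta globin chains, each holding a haem group. In mice Hba-a1 and Hba-a2 encode the adult alpha chain, and Hbb-bs and Hbb-bt encode the adult beta chain. These genes are switched on in erythroblasts under factors that include GATA1 and KLF1, and their transcripts are among the most abundant in erythroblasts and in reticulocytes, the immature red cells that still hold RNA. Bone marrow is the main place of red cell formation in the adult, so erythroid cells lie beside the niche populations that were sorted.

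The alpha genes lie on chromosome 11 and the beta genes on chromosome 7, in the GENCODE annotation of GRCm38, the build named in the submitters' processing notes. Hba-a1 (ENSMUSG00000069919) spans chr11:32283511-32284465 on the plus strand, and Hba-a2 (ENSMUSG00000069917) spans chr11:32296489-32297298 on the same strand. Hbb-bs (ENSMUSG00000052305) spans chr7:103826534-103828096 and Hbb-bt (ENSMUSG00000073940) spans chr7:103812524-103813996, both on the minus strand. Each gene has 3 exons. Hbb-bs and Hbb-bt are the adult beta genes of the reference haplotype. The adult beta genes Hbb-b1 and Hbb-b2, known from other strains, were not analysed here. The beta haplotype of the 129Ly5.1 mice is not given in the labels, and if these mice carry Hbb-b1 and Hbb-b2, values printed for Hbb-bs and Hbb-bt may hold their reads.

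The promoters of 3 of the genes are printed because the 4 genes' shares moved together across the niche libraries. All 4 genes were found in the RefSeq promoter table of GRCm38.p6, and the letters are the 250 bases before each RefSeq start, read on the strand of the gene. Capitals mark 4 motifs on either strand, which are described after the sequences. The Hba-a2 window is chr11:32296242-32296491 on the plus strand, the Hbb-bs window is chr7:103827929-103828178 on the minus strand and the Hbb-bt window is chr7:103813924-103814173 on the minus strand.
Hba-a2: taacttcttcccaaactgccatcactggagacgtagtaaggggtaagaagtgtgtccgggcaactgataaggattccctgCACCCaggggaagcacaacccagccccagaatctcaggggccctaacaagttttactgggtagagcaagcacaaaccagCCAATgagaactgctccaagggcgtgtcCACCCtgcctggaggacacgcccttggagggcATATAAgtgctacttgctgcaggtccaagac
Hbb-bs: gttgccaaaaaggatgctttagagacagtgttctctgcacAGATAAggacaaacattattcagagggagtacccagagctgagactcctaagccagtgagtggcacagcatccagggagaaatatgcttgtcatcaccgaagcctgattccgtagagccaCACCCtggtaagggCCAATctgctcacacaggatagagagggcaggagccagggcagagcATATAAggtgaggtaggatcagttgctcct
Hbb-bt: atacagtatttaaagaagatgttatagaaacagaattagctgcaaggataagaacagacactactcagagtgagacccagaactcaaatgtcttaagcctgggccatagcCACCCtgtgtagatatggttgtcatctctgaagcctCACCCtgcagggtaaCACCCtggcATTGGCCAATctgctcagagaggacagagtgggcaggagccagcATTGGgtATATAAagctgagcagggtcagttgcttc
The Hba-a1 promoter, at chr11:32283422-32283671 on the plus strand, is not printed because it matched that of Hba-a2 at 297 of 297 aligned bases of the 300-base windows. The beta windows matched each other at 168 of 299 aligned bases (56.2%).

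The motifs were searched on both strands of 300-base windows, 250 before and 50 after the start. CACCC, the core of the element bound by KLF1, lay in 4 of the 4 windows and in 57.7% of all 32544 promoters. CCAAT, the core of the element bound by NF-Y, lay in 4 of 4 and in 37.4% of all promoters. ATATAA, similar to the core promoter box that binds the TBP protein and added to the search after the sequences had been seen, lay in 4 of 4 and in 9.82% of all promoters. The GATA-type letters AGATAA lay in 1 of 4, Hbb-bs, and in 11.2% of all promoters. Other GATA-type letters were not searched for, among them TGATAA, which the printed Hba-a2 window holds. CATAAA, another form of the box that binds TBP, lay in none of the 4 and in 11.9% of all promoters. In Hbb-bt 2 further CCAAT matches lie on the minus strand, and the one at position -80 abuts the plus-strand match at -75. Positions are counted back from the start, with -1 for the base before it. A match describes letters and does not show that a factor binds there.

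The 11 LSK libraries held 1254553 to 5775459 reads and the 18 niche libraries 10635 to 117989 unique molecular identifiers (UMIs), which count molecules. The LSK table came from Smart-seq2 and the niche table from a barcoded UMI protocol, so levels are not tested between them. In counts per 1000000 counts of the library without the 4 haemoglobin genes (CPM, used below for all other genes), the 12 endothelial markers summed to 13036 to 18587 in EC libraries, but also to 7609 to 16683 in MSC libraries, against 2437 to 7034 in OBC libraries. The osteoblast markers summed to 3807 to 18893 CPM in OBC and to 1381 to 3698 CPM in the other niche libraries. The mesenchymal markers summed to 4266 to 10113 CPM in MSC, overlapping OBC at 3603 to 8259 CPM, and to 2762 to 3979 CPM in EC. MSC libraries were therefore less set apart by their markers than EC and OBC libraries. In LSK libraries all 11 markers of that gate were detected well enough to be tested. Wnt5a itself had 2 reads over the 6 LSK WT and 10 over the 5 LSK Wnt5a libraries, which checks no label, since the genotype is that of the niche, and its niche level was not analysed here.

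In the niche libraries haemoglobin RNA was a large part of what was counted. The highest of the 4 genes ranked between 1 and 5 among all genes of its library. In OBC WT the 4 genes together took 3.42%, 3.51% and 6.47% of UMIs in replicates 7, 8 and 9, a mean of 4.47 ± 1.74% (SD, n = 3). In OBC Wnt5a they took 5.16%, 8.41% and 11.96% in replicates 10, 11 and 12, a mean of 8.51 ± 3.40% (SD, n = 3). The OBC groups overlapped, since the highest WT library lay above the lowest Wnt5a library.

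In MSC WT the summed share was 4.60%, 3.87% and 6.44% in replicates 1, 2 and 3, a mean of 4.97 ± 1.32% (SD, n = 3). In MSC Wnt5a it was 7.05%, 4.46% and 7.84% in replicates 4, 5 and 6, a mean of 6.45 ± 1.77% (SD, n = 3). Replicate 5 fell inside the WT range and the other Wnt5a libraries lay above it. Of the EC libraries, WT replicate 14 stood apart from the other 17 niche libraries, at 24.3% of 95216 UMIs (exact 95% interval 24.0 to 24.6%, which covers counting error only). The other 17 libraries lay between 1.90% and 11.96%. Its partners, replicates 13 and 15, were the lowest and the second-lowest of all 18.

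Ordered by group median, the summed share was highest in OBC Wnt5a at 8.41%, then MSC Wnt5a at 7.05%, EC Wnt5a at 5.15%, MSC WT at 4.60%, OBC WT at 3.51% and EC WT at 2.57%. Every pair of neighbours in this order overlapped in range, but OBC WT and EC WT did so only through EC WT replicate 14, as the other EC WT libraries lay below every OBC WT library. By group mean EC WT came first instead of last, through replicate 14. In bulk libraries, fewer cells of a type and less RNA per cell cannot be told apart, so a share does not say how many red cells or precursors were present.

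**Figure D1:**
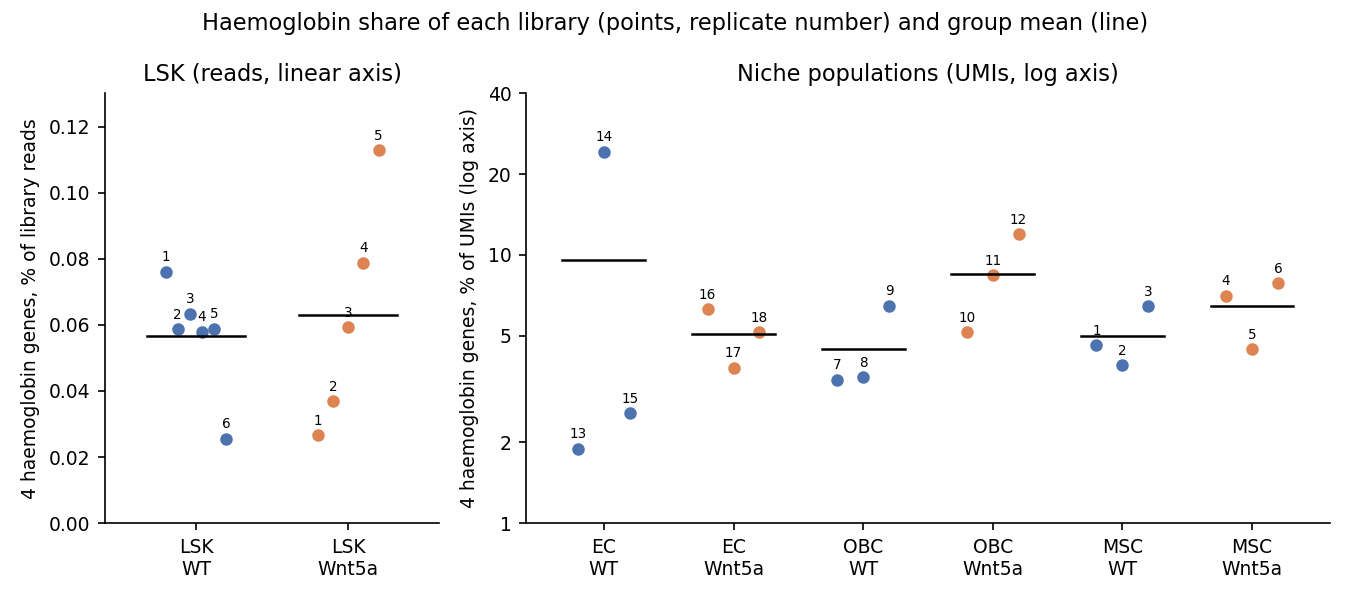
Summed share of the 4 haemoglobin genes in each library, as percent of the library's reads (LSK, linear axis) or UMIs (niche, log axis), with 1 numbered point per library and the group mean as a line. LSK libraries lie between 0.0256% and 0.113% of reads, and niche libraries between 1.90% and 24.3% of UMIs, the highest being EC WT replicate 14.

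LSK libraries held far less haemoglobin RNA. In LSK WT the lowest, median and highest summed shares of the 6 libraries were 0.0256%, 0.0588% and 0.0761% of reads. In LSK Wnt5a the 5 libraries held 0.0266%, 0.0368%, 0.0593%, 0.0789% and 0.113%, and the groups overlapped over most of their range. The highest haemoglobin gene ranked between 342 and 3997 in these libraries. The LSK means were 0.0568 ± 0.0167% (SD, n = 6) for WT and 0.0629 ± 0.0345% (SD, n = 5) for Wnt5a.

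In LSK the alpha genes were, on average, a little higher with a Wnt5a niche and the beta genes were not. Hba-a1 took 0.00516%, 0.0115% and 0.0133% (lowest, median, highest) in WT, and 0.00581%, 0.00818%, 0.0169%, 0.0215% and 0.0265% in the Wnt5a libraries, sorted by size. Hbb-bs took 0.00821%, 0.0198% and 0.0288% in WT, and 0.00788%, 0.0101%, 0.0151%, 0.0204% and 0.0328% in Wnt5a. For Hba-a1, 3 of 5 Wnt5a libraries lay above every WT library, and for Hbb-bs 1 of 5 did. Hba-a2 ranged from 0.00581% to 0.0149% in WT and from 0.0070% to 0.0299% in Wnt5a. Hbb-bt ranged from 0.00639% to 0.0199% in WT and from 0.00588% to 0.0236% in Wnt5a, with the lower Wnt5a median, 0.00929% against 0.0148%.

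Within the niche table Hba-a2 and Hbb-bs carried most of the haemoglobin counts. Hba-a2, the larger alpha count, took 1.56%, 2.10% and 2.77% of UMIs in OBC WT and 2.68%, 4.23% and 5.76% in OBC Wnt5a. It took 1.68%, 1.30% and 2.32% in MSC WT and 2.58%, 1.88% and 3.37% in MSC Wnt5a. In EC WT it took 0.740%, 8.49% and 0.915%, and in EC Wnt5a 2.38%, 1.40% and 2.05%. Its OBC groups overlapped only between the highest WT and the lowest Wnt5a library, and its EC Wnt5a libraries fell between replicate 14 and the other EC WT libraries.

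Hbb-bs, the larger beta count, followed the same order of libraries within EC. It took 0.706%, 11.2% and 1.04% in EC WT and 2.76%, 1.52% and 2.11% in EC Wnt5a. It took 1.29%, 0.940% and 2.44% in OBC WT and 1.68%, 2.84% and 4.23% in OBC Wnt5a. It took 1.92%, 1.81% and 2.82% in MSC WT and 3.22%, 1.72% and 2.91% in MSC Wnt5a, and these groups overlapped. The smaller counts moved in the same range of libraries. Hba-a1 ran from 0.208% to 1.47% and Hbb-bt from 0.241% to 3.09% over the 18 libraries, and EC WT replicate 14 was the highest for both.

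The split between the near-identical copies differed between the tables. In LSK libraries the mean shares of the haemoglobin counts were 21.9% Hba-a1, 24.7% Hba-a2, 30.6% Hbb-bs and 22.7% Hbb-bt. In niche libraries they were 7.90%, 41.7%, 39.2% and 11.2% in the same order. The Hba-a1 to Hba-a2 ratio was 0.825 to 0.945 in the 11 LSK libraries and 0.0992 to 0.328 in the 18 niche libraries. The Hbb-bs to Hbb-bt ratio was 1.13 to 1.63 in LSK and 2.93 to 4.41 in the niche, so neither ratio overlapped between the tables. Per kilobase of exons, mean CPM of all counts was 189 for Hba-a1, 267 for Hba-a2, 256 for Hbb-bs and 190 for Hbb-bt in LSK, and 6823, 48324, 36767 and 10423 in the niche. UMIs count molecules and need not grow with transcript length, so dividing by length may distort the niche values. The lengths used were 699 bases for Hba-a1 and 554 for Hba-a2, whose transcript starts at base 162 of the Hba-a1 transcript.

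The copies share most of their transcript sequence, so this split is uncertain. Of the 50-base windows of Hba-a1 transcripts, 67.5% are found in Hba-a2, and 86.9% of those of Hba-a2 are found in Hba-a1. Between Hbb-bs and Hbb-bt the shares are 65.8% and 58.3%, and no window is shared between alpha and beta genes. In the last 300 bases the shares are 80.1% and 73.7% for the alpha pair and 36.7% and 36.3% for the beta pair. How reads that match both copies were counted is not given in the sources used here, and its part in the difference between the tables was not tested. Sums over the alpha pair and over the beta pair do not depend on how shared reads were split between copies. They do depend on how many shared reads were dropped.

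**Figure D2:**
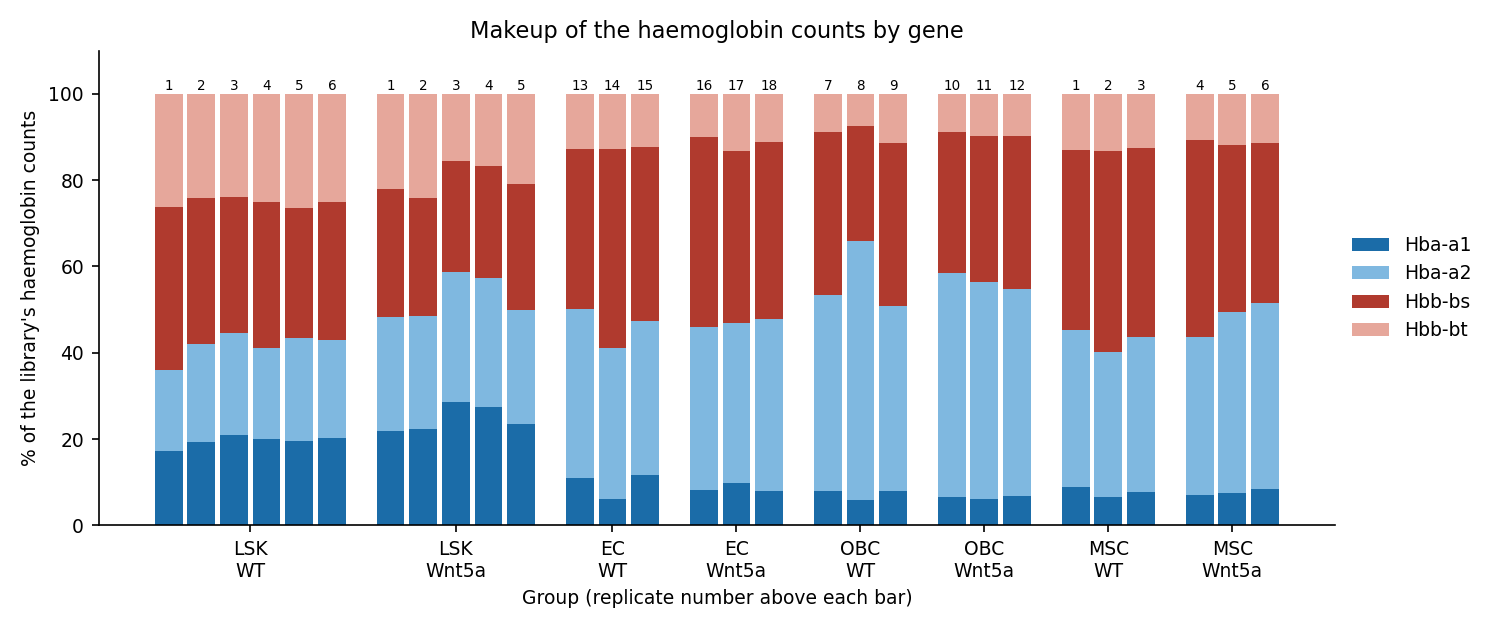
Make-up of the haemoglobin counts in each library as stacked bars, in percent of the counts of the 4 genes. Hba-a2 and Hbb-bs fill most of each niche bar, with means of 41.7% and 39.2%, while the 4 genes are closer to even in LSK bars, with means of 21.9% to 30.6%.

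The ratio of summed alpha to summed beta counts separated the LSK groups. In LSK WT replicates 1 to 6 it was 0.563, 0.724, 0.804, 0.697, 0.765 and 0.751, a mean of 0.717 ± 0.0839 (SD, n = 6). In LSK Wnt5a replicates 1 to 5 it was 0.931, 0.944, 1.43, 1.35 and 1.001, a mean of 1.13 ± 0.238 (SD, n = 5). Every Wnt5a library lay above every WT library, and the ratio is given as a description without a test. Per kilobase of exons the ranges were 0.649 to 0.928 and 1.08 to 1.64, again without overlap.

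The LSK labels carry numbers of 4 digits in all 6 WT libraries and in 3 Wnt5a libraries, and of 3 digits in the other 2 Wnt5a libraries. What the digits mean is not given in the labels. Among 4-digit labels the ratio was 0.931 to 1.43 in Wnt5a against 0.563 to 0.804 in WT, and the 3-digit libraries stood at 1.001 and 1.35. The summed share differed along the same line, at 0.0266% to 0.0593% in the 4-digit and 0.0789% to 0.113% in the 3-digit Wnt5a libraries. Mitochondrial and ribosomal RNA genes took 1.81% to 3.61% of reads in LSK WT and 2.59% to 9.02% in LSK Wnt5a, and their part in the ratio was not tested.

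In the niche the ratio was highest in OBC. It was 1.15, 1.92 and 1.04 in OBC WT and 1.41, 1.29 and 1.22 in OBC Wnt5a, a median of 1.25 over the 6 libraries. The 12 EC and MSC libraries lay between 0.669 and 1.06, with a median of 0.867, and 1 of the 12, MSC Wnt5a replicate 6, lay above the lowest OBC library. EC WT replicate 14 was low, at 0.695, against 1.003 and 0.897 in its partners. The ratio was 0.854, 0.881 and 0.916 in EC Wnt5a, 0.828, 0.669 and 0.778 in MSC WT and 0.772, 0.982 and 1.06 in MSC Wnt5a. OBC libraries were also the shallowest, at 10635 to 29772 UMIs against 18542 to 117989, and had 12.4% to 28.7% of UMIs in mitochondrial and ribosomal RNA genes against 2.81% to 18.7%. Their part in the ratio was not tested.

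**Figure D3:**
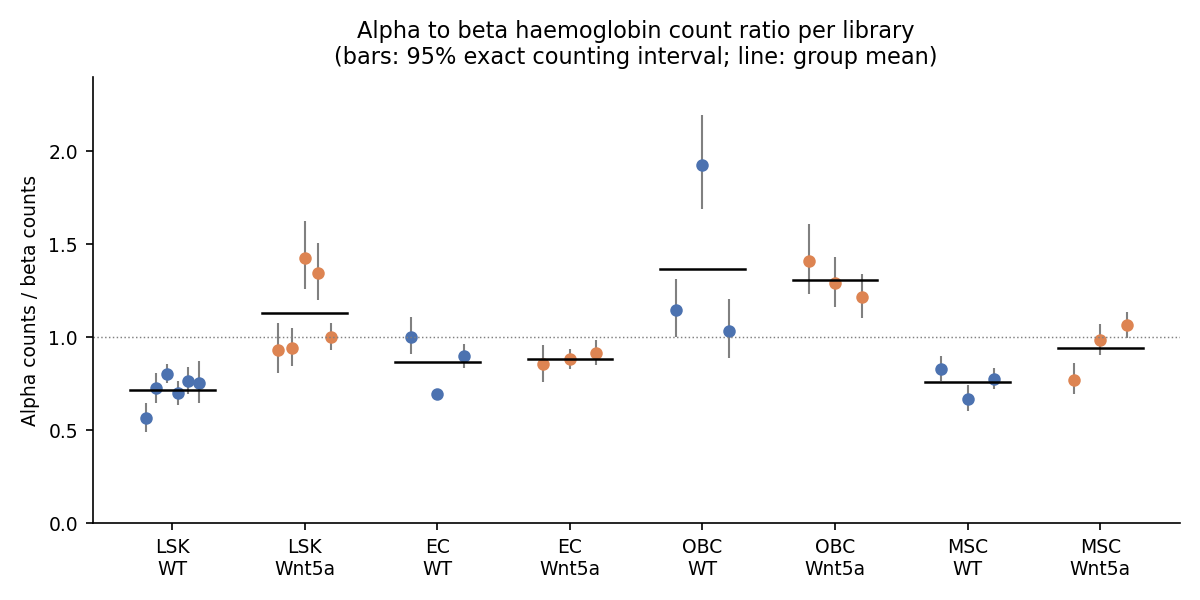
Ratio of Hba-a1 plus Hba-a2 counts to Hbb-bs plus Hbb-bt counts in each library, with bars for exact 95% counting intervals, a solid line for each group mean and a dotted line at equal counts. LSK Wnt5a libraries (0.931 to 1.43) lie above all LSK WT libraries (0.563 to 0.804), and OBC libraries (1.04 to 1.92) reach highest in the niche.

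No haemoglobin gene passed the test by niche genotype in LSK cells. In edgeR's quasi-likelihood test 0 of 4 passed an adjusted p of 0.05, against 0.0229% of the 13098 genes tested. The log2 difference, Wnt5a against WT, was 0.74 for Hba-a1 (SE 0.36, edgeR adjusted p = 0.282) and 0.72 for Hba-a2 (SE 0.34, edgeR adjusted p = 0.275). It was 0.07 for Hbb-bs (SE 0.36, edgeR adjusted p = 0.944) and -0.02 for Hbb-bt (SE 0.34, edgeR adjusted p = 0.984). Among the 4-digit labels the log2 differences were 0.02, 0.01, -0.68 and -0.71 in the same order, so the alpha differences shrank to near 0 and the beta genes stood lower in Wnt5a, with none past the test. In every comparison of the genotypes and populations, 0 of 4 members had an unadjusted edgeR p under 0.05. Of all genes, 2414 of 13098 did by genotype in LSK. In the niche 89 of 1099 did in EC, 96 in OBC, 203 in MSC and 180 in the mean, and 217 to 567 did between populations. In DESeq2 or limma voom 0 of 4 members passed, and the shares of all genes called by them are not given here. A p that misses the threshold does not show that the levels were alike.

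In the niche the same fit over all 18 libraries passed 0 of 4 in each population. EC Wnt5a libraries had log2 differences from WT of -0.87 (Hba-a1), -1.09 (Hba-a2), -1.32 (Hbb-bs) and -1.40 (Hbb-bt), with edgeR adjusted p from 0.583 to 0.662, against 0.364% of 1099 genes called. OBC Wnt5a had log2 differences of 0.70, 0.90, 0.86 and 0.91 in that order (edgeR adjusted p 0.731 to 0.798, 1.0% of genes called). MSC Wnt5a had log2 differences of 0.45, 0.66, 0.35 and 0.27 (edgeR adjusted p 0.614 to 0.862, 0.455% of genes called). The mean of the 3 populations' differences was 0.09, 0.16, -0.04 and -0.07 (edgeR adjusted p 0.875 to 0.981), with 0 of 4 called against 2.82% of genes. The test of whether the genotype difference varied between populations also called 0 of 4 (edgeR adjusted p 0.648 to 0.682), against 0.455% of genes.

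EC WT replicate 14 decided the EC differences and the mean that holds them, and hardly moved the OBC and MSC differences. Without it, an alternative planned for every library, the EC differences turned to 0.78, 1.26, 1.31 and 1.04 in favour of Wnt5a, with 0 of 4 past the test (edgeR adjusted p 0.314 to 0.597, 0.245% of 1224 genes called). The mean difference then passed for 3 of 4 genes, against 5.80% of genes. These were Hba-a2 at 0.93 (SE 0.23, edgeR adjusted p = 0.0101), Hbb-bs at 0.83 (SE 0.24, edgeR adjusted p = 0.0241) and Hbb-bt at 0.73 (SE 0.23, edgeR adjusted p = 0.0372). Hba-a1 stood at 0.63 and did not pass (edgeR adjusted p = 0.0829). The test thus passed for 3 genes with 17 niche libraries and for none with all 18, where the standard errors were 0.31 to 0.40. Replicate 14 was singled out by its haemoglobin share, and dropping the highest EC WT library raises the EC difference by construction. The p-values without it are therefore no independent support for a genotype difference.

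**Figure D4:**
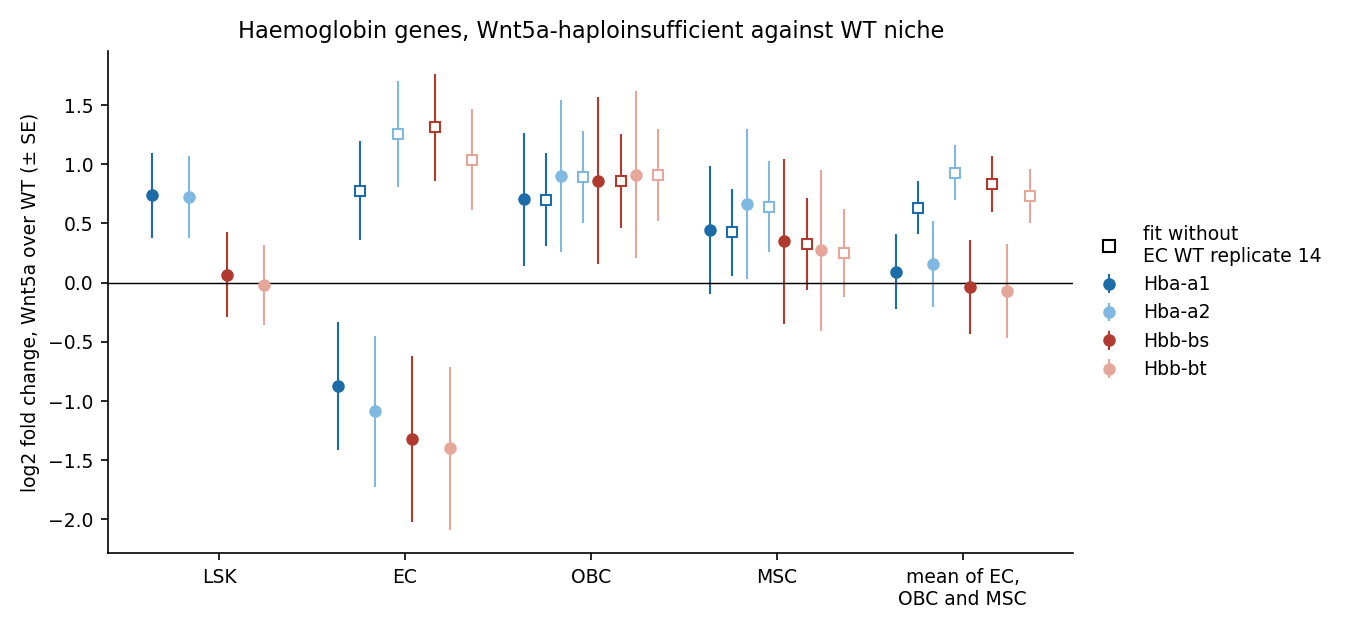
Log2 difference of each haemoglobin gene, Wnt5a against WT, from edgeR, with bars of 1 standard error, for all libraries (filled) and for the niche fit without EC WT replicate 14 (open squares). The EC values move from below 0 (-0.87 to -1.40) to above 0 (0.78 to 1.31) when that library is left out, and the mean over populations moves from near 0 to 0.63 to 0.93.

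Between populations the haemoglobin genes likewise passed no test in the fit of all libraries. EC against OBC and MSC gave log2 differences of 0.25, -0.03, 0.40 and 0.36 for Hba-a1, Hba-a2, Hbb-bs and Hbb-bt, with 0 of 4 called by edgeR against 39.8% of genes. OBC against EC and MSC gave -0.03, 0.52, -0.20 and -0.22, with 0 of 4 called against 46.0%. MSC against EC and OBC gave -0.21, -0.49, -0.20 and -0.14, with 0 of 4 called against 6.82%. These comparisons share libraries and are not independent of each other.

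Without EC WT replicate 14 the EC libraries were lower for 3 of 4 genes, against 44.6% of all genes called in either direction and 18.5% called lower. The log2 difference was -1.18 for Hba-a2 (edgeR adjusted p = 0.000383), -0.89 for Hbb-bs (edgeR adjusted p = 0.00586) and -0.84 for Hbb-bt (edgeR adjusted p = 0.00624). In OBC, 1 of 4 passed, Hba-a2, higher by 1.09 (SE 0.23, edgeR adjusted p = 0.000116), against 47.6% of genes called in either direction and 21.1% called higher. In MSC 0 of 4 passed, against 7.11% of genes, with values from 0.09 to 0.46. Replicate 14 was singled out by its high haemoglobin share, and dropping it lowers the EC level by construction. The adjusted p-values without it are therefore no independent support for a difference between populations.

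Embryonic and other globins were near absent from both tables. In LSK libraries Cygb, the cytoglobin of fibroblast-like cells, had 21 reads over the 6 WT and 14 over the 5 Wnt5a libraries. Hbb-y, an embryonic beta-type globin, had 9 and 3, Hbq1b, a theta globin, 14 and 0, Hbq1a 5 and 4, the alpha pseudogene Hba-ps4 1 and 7, Ngb (neuroglobin) 0 and 4, and the embryonic Hbb-bh1 1 and 0. A further 5 of the 12 listed globins in that table had no read in any LSK library. In the niche no other globin exceeded 7 UMIs in any group, a count reached by Cygb in OBC WT. EC WT replicate 14 and its partners together held 2 UMIs of Hbb-y, 2 of Hbb-bh1, 3 of Hbb-bh3 and 1 of the embryonic alpha-type Hba-x.

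Genes of haem synthesis and mitochondrial iron were read beside haemoglobin in the niche. In all of the genotype comparisons, the mean over populations included, edgeR called none of the 22 tested genes of the 4 red cell lists (haem synthesis, erythroid transcription factors, membrane, cytosol; 91 genes in all). At an unadjusted p under 0.05 there were 1 in EC, 1 in OBC, 5 in MSC and 3 in the mean, against 8.10%, 8.74%, 18.5% and 16.4% of all genes tested. DESeq2 called 1 in MSC and 1 in the mean, and limma voom called 2 in the mean. Shares of all genes called by these tools are not given here, so their counts cannot be read as many or few. The 7 tested haem synthesis genes were all higher in value in OBC Wnt5a (median log2 difference 0.56, against 0.00265 over all genes tested) and in MSC Wnt5a (median 1.33, against -0.03 over all genes tested). The largest in OBC was Tmem14c, a haem precursor transporter of the inner mitochondrial membrane, at 1.73 (edgeR adjusted p = 0.182). In MSC they were Glrx5, which serves iron-sulphur cluster assembly, at 2.62 (edgeR adjusted p = 0.179) and Tmem14c at 1.66 (edgeR adjusted p = 0.0923).

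The summed level of the haem synthesis list set the genotypes apart in OBC and MSC. It ran from 1588 to 2915 CPM in OBC WT and from 3658 to 5462 CPM in OBC Wnt5a. In MSC it ran from 1227 to 1727 CPM in WT and from 2690 to 3077 CPM in Wnt5a. In EC it was 735, 3828 and 835 CPM in WT replicates 13, 14 and 15, and 1499 to 2244 CPM in EC Wnt5a, so that replicate 14 alone made the groups overlap. Markers of other cell types moved with genotype in the same libraries. The osteoblast markers summed to 6836 to 18893 CPM in OBC WT and to 3807 to 6771 CPM in OBC Wnt5a. Over all genes tested in OBC, 50.2% of log2 differences were positive (median 0.00265). The 5 tested osteoblast markers all had negative ones (median -1.88). Of these, edgeR called Col1a1, a bone collagen chain, at -1.88 (edgeR adjusted p = 0.0156) and Spp1, osteopontin, at -2.54 (edgeR adjusted p = 0.0421). Of all genes, it called 1.0% in this comparison. In MSC the endothelial markers summed to 15073 to 16683 CPM in WT and to 7609 to 10651 CPM in Wnt5a. The 10 tested endothelial markers all had negative values (median -0.60), while 48.4% of all genes tested in MSC had positive ones (median -0.026). Of the 10 markers, edgeR called 0, against 0.455% of all genes. Limma voom called 0 and DESeq2 3, with no share of all genes given here for either tool. At an unadjusted edgeR p under 0.05 there were 4, against 203 of 1099 genes. The part of these cell types in the haem synthesis values was not tested. Without replicate 14, a set of alternatives added after seeing the data, edgeR called Tmem14c higher in OBC Wnt5a, against 1.39% of genes called there, and Glrx5, Tmem14c and Car2 higher in MSC Wnt5a, against 3.10%. In the mean over populations it then called Glrx5, Tmem14c, Car2 and Alad, an early haem synthesis enzyme, against 5.80% of all genes. That library is in neither the OBC nor the MSC difference and entered those fits through the shared spread, the scaling and the filter.

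Several red cell genes were higher in OBC than in EC and MSC in the fit of all libraries. Of the 22 tested, edgeR called 7 higher and 2 lower, against 18.8% of all genes higher and 27.2% lower. The haem synthesis genes called were Glrx5 at a log2 difference of 2.13 (SE 0.57, edgeR adjusted p = 0.00534), Tmem14c at 1.30 (SE 0.35, edgeR adjusted p = 0.00214) and Fech, ferrochelatase, at 1.39 (SE 0.52, edgeR adjusted p = 0.0250). Slc4a1, the band 3 anion exchanger of the red cell membrane, was higher by 1.93 (SE 0.56, edgeR adjusted p = 0.00411), and Epb41, the membrane skeleton protein 4.1, by 1.02 (edgeR adjusted p = 0.0380). Bnip3l, which clears mitochondria from reticulocytes, was higher by 1.08 (edgeR adjusted p = 0.0446) and Car2, a carbonic anhydrase, by 1.32 (edgeR adjusted p = 0.0136). The lower genes were Cd36 at -2.51 and Aqp1 at -2.19, which endothelial cells also express.

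In EC, red cell genes were called lower about as often as genes in general, 4 of 22 against 15.6% of all genes. On the log2 scale Tmem14c stood at -0.99, Cpox, a late haem synthesis enzyme, at -1.40, Slc25a37, the mitochondrial iron importer mitoferrin, at -1.65 and Car2 at -1.23. Cd36 (1.32) and Aqp1 (1.09) were the 2 called higher, against 24.2% of all genes. In MSC against the rest, Cd36 at 1.19 and Aqp1 at 1.09 were the genes called of the 22, against 5.55% of all genes higher and 1.27% lower. Without EC WT replicate 14, edgeR called 7 of the 7 haem synthesis genes lower in EC, against 18.5% of all genes. It called 6 of 7 higher in OBC, against 21.1%. That library was singled out by its haemoglobin share and held the highest haem synthesis sum in EC, so dropping it lowers EC by construction. The second iron list, of storage and haem handling outside red cells, had 2 tested genes. Of these Hp, haptoglobin, was higher in OBC by 4.44 (edgeR adjusted p = 6.6e-18) and lower in EC, at -2.91, and in MSC, at -1.52. Vcam1, an adhesion molecule of macrophages and stroma, was lower in MSC, at -2.32.

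EC WT replicate 14 held more of several red cell transcripts than its partners, while its summed haem synthesis and transcription factor lists were lower per haemoglobin count. Prdx2, the peroxiredoxin of red cells, stood at 294, 2330 and 331 CPM in replicates 13, 14 and 15. Alas2, the erythroid first enzyme of haem synthesis, stood at 24.5, 527 and 78.3 CPM, and Klf1, the erythroid transcription factor, at 36.7, 305 and 8.70 CPM. Among the EC WT libraries each of these was highest in replicate 14, while Klf1 reached 313 CPM in OBC WT, from 9 UMIs. Alas2 had only 2 to 38 UMIs and Klf1 1 to 22 UMIs in the EC WT libraries, so their proportion to haemoglobin is uncertain. Per 1000 haemoglobin counts, however, the haem synthesis list had 11.9 counts in replicate 14 against 38.0 and 31.7, and the transcription factor list 3.94 against 29.7 and 27.4. The membrane list summed to 12623, 13620 and 12335 CPM, close in all 3, and holds Cd36 and Aqp1. In the transcription factor list Zbtb7a and Ldb1 held 58 and 40 UMIs over the 3 EC WT libraries, against 26 of Klf1.

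**Figure D5:**
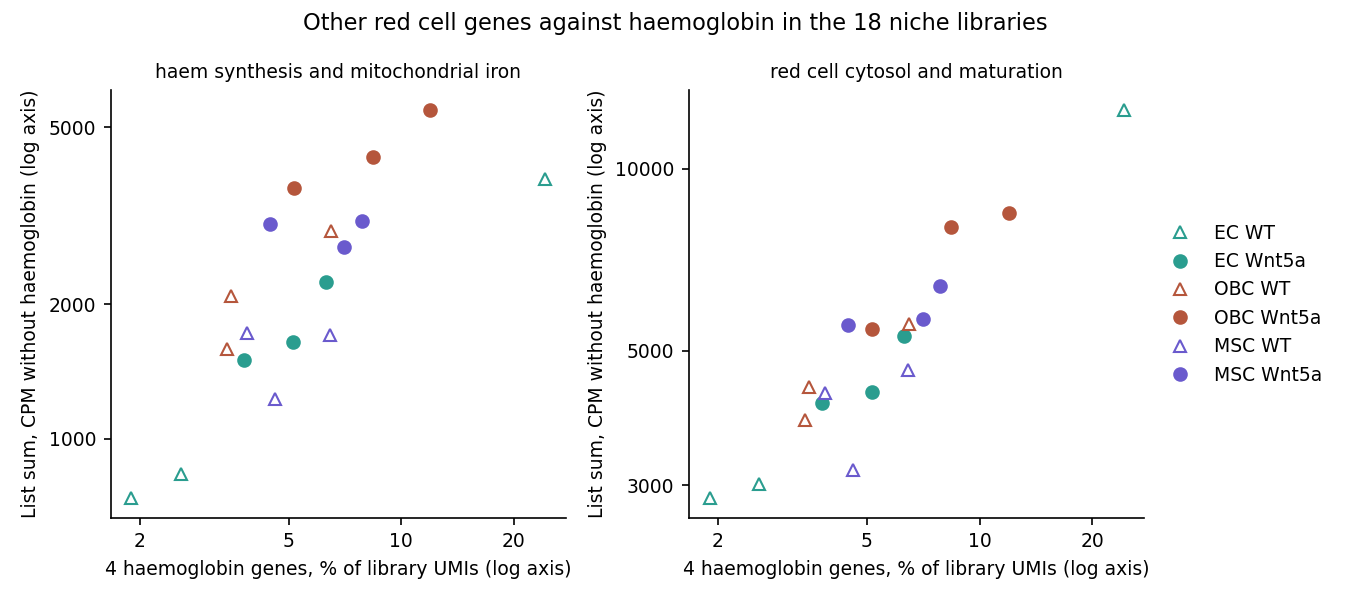
Summed CPM of the haem synthesis list (left) and of the red cell cytosol and maturation list (right) against the summed haemoglobin share of the library, all on log axes, with 1 point per niche library. EC WT replicate 14 lies at the right edge, at 24.3% haemoglobin, with 3828 CPM of haem synthesis genes, below the highest OBC Wnt5a library at 5462 CPM.

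Summed neutrophil markers were higher in the Wnt5a group of each population. All 16 listed markers were in the table, none was at 0 in every library, and between 5 and 15 were detected in a single library. Their sum ran from 343 to 557 CPM in EC WT and from 1551 to 3018 CPM in EC Wnt5a. It ran from 2858 to 5630 CPM in OBC WT against 7531 to 10560 CPM in OBC Wnt5a, and from 1281 to 1618 CPM in MSC WT against 2797 to 4184 CPM in MSC Wnt5a. The groups did not overlap in any of the 3 populations, and EC WT replicate 14, high in haemoglobin, was not high in these markers. Of the 5 tested, edgeR called 4 higher in EC Wnt5a (Ngp, Ltf, S100a8 and S100a9) and 1 in MSC Wnt5a (S100a9). Of all genes, it called 0.364% in EC and 0.455% in MSC. In OBC it called 0 of 5, with a lowest edgeR adjusted p of 0.330, against 1.0% of all genes. At an unadjusted edgeR p under 0.05 there were 3, against 96 of 1099 genes. DESeq2 and limma voom also called 0 in OBC. In EC the haemoglobin values of the fit with all libraries ran the other way, at -0.87 to -1.40, but they were 0.78 to 1.31 without replicate 14. In OBC and MSC the haemoglobin values with all libraries were above 0, at 0.70 to 0.91 and 0.27 to 0.66. The part of other blood cells in the haemoglobin values was not tested.

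No gene of the red cell lists passed the test by niche genotype in LSK cells. Of the 71 tested genes of the 4 red cell lists edgeR called none by genotype. At an unadjusted edgeR p under 0.05 there were 12, against 18.4% of all genes. DESeq2 called 2 and limma voom none. Shares of all genes called by these tools are not given here, so the 2 cannot be read as many or few. Alas2 stood at 0 to 2.39 CPM in WT and 0 to 1.02 CPM in Wnt5a, and Klf1 at 1.72 to 16.1 and 0 to 7.60 CPM. The haem synthesis list summed to 796 to 1353 CPM in WT and 727 to 1009 CPM in Wnt5a.

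The genes whose level followed haemoglobin most closely were different in the 2 tables. Across the 18 niche libraries, which share the haemoglobin-free total as their scale, the 5 highest Spearman correlations with summed haemoglobin CPM included those of Prdx2 (0.909), the histone gene Hist1h2ap (0.856), the ferritin heavy chain Fth1 (0.816) and the protease Ctse (0.802). The median over 1095 genes was -0.0547. Without EC WT replicate 14 these 4 were 0.892, 0.828, 0.782 and 0.787 in the same order. Prdx2 ran from 238 to 2330 CPM, and Fth1 from 487 to 3551 CPM. Prdx2 and Fth1 are on the lists of red cell and iron genes used here.

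Across the 11 LSK libraries the 5 closest were Atp5j2 (0.964), Atpif1 (0.964), Atp6v1f (0.955), S100a1 (0.955) and Ndufa11 (0.945), with a median of -0.118 over 13094 genes. Atp5j2 and Atpif1 belong to the mitochondrial ATP synthase as a subunit and its inhibitor, Atp6v1f to the vacuolar proton pump and Ndufa11 to respiratory complex I. None of the 5 is on a red cell list, and Prdx2 had a correlation of -0.455 here. Atp5j2 ran from 107.4 to 238.5 CPM over these libraries. These correlations are descriptions over libraries that differ in depth and genotype.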

How the data were processed

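Both deposited tables hold raw counts per Ensembl gene: reads in the LSK table (Smart-seq2, per the labels) and UMIs in the niche table, as the authors deposited them. STAR, featureCounts and mm10 (GRCm38) are named in the submitters' processing notes. Their versions, the annotation release, strandedness and UMI collapsing: not given in the sources used here. Symbols were found for 37607 of 38924 and 17973 of 18194 identifiers. A further 28 spike-in entries (48 counts) were kept out of niche totals. No sample column was left out. Shares are percent of library counts, with exact 95% binomial intervals that cover counting error only, as reads without molecular identifiers are not independent.

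edgeR 4.0.16 (R 4.3.3, limma 3.58.1) fitted each table whole with TMM scaling, a filter on low counts (minimum 10, total 15) and a robust quasi-likelihood test. 13098 LSK and 1099 niche genes were tested, with Benjamini-Hochberg adjustment over all of them and a threshold of 0.05. The common biological coefficient of variation was 0.448 and 0.319. Alternatives were DESeq2 1.42.0, limma voom, other scalings, no filter, fewer samples and leaving out each library. For DESeq2 and limma voom, shares of all genes called are not given beside the counts of listed genes. The fits were tested on simulated data. No 2 libraries of a group were alike within sampling noise, the closest pair differing in 5350 genes. Exon lengths came from GENCODE and promoters from RefSeq. Python 3.11.15 and SciPy 1.17.1 were used.

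Members and gene lists were chosen with earlier results of these data known. Named genes are the members, detected globins, listed genes past the test or with the highest counts (up to 5 a list), and the 5 genes most correlated with haemoglobin; 1 that this rule names is not reported here. Replicate numbers differ between niche groups, and no label pairs LSK libraries.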

Additional observations from a re-analysis of the deposited data

Results flagged for a closer look

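In the LSK WT group of 6 libraries, replicate 6 stood low, apart from the other 5, for Hba-a1 at 0.00516% of reads, for Hba-a2 at 0.00581% and for the 4 genes together at 0.0256%. Its gap to the next library took 0.761, 0.708 and 0.640 of the group's whole range, above the critical value of 0.625. Of 16 sets of values checked, 3 were marked, all by this library, and chance marks about 1 in 20. The 3 values share counts and are not independent. Groups of 3 libraries, EC WT among them, are too small for this check.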

How the results depend on the processing

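No paired analysis was run, because the replicate numbers of the niche groups all differ and no LSK label pairs libraries. Whether EC, OBC and MSC libraries share animals is not given in the labels, and the tests treat them as independent. Summed shares stayed within 1 SD of the group value under all settings run, but EC WT, 9.58%, became 2.23% without replicate 14 and reached 13.4% at most. The count of haemoglobin genes past the test stayed at 0 in the 58 other settings, and leaving out single libraries gave 0 to 3 for EC against the rest, 0 to 3 for the mean genotype difference and 0 to 1 for OBC against the rest, each maximum without EC WT replicate 14. Per kilobase of exons, which weighs genes by length, the alpha to beta ratio moved to 0.828 in LSK WT, 1.06 in EC WT and 1.09 in EC Wnt5a. It moved to 1.64 in OBC Wnt5a, 0.936 in MSC WT and 1.17 in MSC Wnt5a. As UMIs count molecules, this weighing may distort the niche ratios. Leaving out single libraries moved no ratio beyond 1 SD.

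Signs of uncalled log2 differences were not stable, and the cause was not tested. With limma voom those reversed were, for EC against the rest, Hba-a1 (-0.039), Hbb-bs (-0.21) and Hbb-bt (-0.17), for OBC against the rest Hba-a1 (0.11), Hbb-bs (0.085) and Hbb-bt (0.0072), for MSC against the rest Hbb-bs (0.12) and Hbb-bt (0.16), for the mean genotype difference Hbb-bs (0.37) and Hbb-bt (0.32), and for LSK Hbb-bs (-0.10). With plain totals they were Hba-a2 in EC against the rest (0.013), Hbb-bs in LSK (-0.14) and the mean difference of Hbb-bs (0.050) and Hbb-bt (0.0080). With no filter they were Hba-a2 in EC against the rest (0.31) and Hbb-bt in MSC against the rest (0.0084), and with 4-digit labels only Hbb-bs in LSK (-0.68).

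Leaving out single libraries reversed 23 of 32 log2 differences at least once. For Hba-a1, Hba-a2, Hbb-bs and Hbb-bt the ranges were -1.19 to 0.78, -1.44 to 1.26, -1.69 to 1.31 and -1.75 to 1.04 for EC genotype, -0.55 to 0.48, -1.18 to 0.21, -0.89 to 0.66 and -0.84 to 0.61 for EC against the rest, and -0.060 to 0.63, -0.0090 to 0.93, -0.21 to 0.83 and -0.24 to 0.73 for the mean difference. For MSC against the rest they were -0.41 to 0.19, -0.65 to 0.087, -0.34 to 0.44 and -0.28 to 0.46. For OBC against the rest they were -0.26 to 0.37 (Hba-a1), 0.34 to 1.09 (Hba-a2), -0.41 to 0.46 (Hbb-bs) and -0.42 to 0.38 (Hbb-bt). For MSC genotype they were -0.075 to 0.49 (Hba-a1) and -0.14 to 0.28 (Hbb-bt), and for LSK -0.32 to 0.26 (Hbb-bs) and -0.42 to 0.17 (Hbb-bt). Niche libraries of 10635 to 117989 UMIs limit the niche comparisons to 1099 genes.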
